A study of Chlorocebus sabaeus with 32 samples.

Results

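The genes described here are 10 genes known as markers of newly formed oligodendrocytes, the cells between the dividing precursor and the myelinating oligodendrocyte: GPR17, BCAS1, ENPP6, TNS3, TCF7L2, ITPR2, BMP4, NKX2-2, FYN and MYRF. They were taken by symbol from the first column of a gene count table of vervet monkey (Chlorocebus sabaeus) hippocampus. All 10 have a row among the 33994 gene rows, and all 10 were among the 19959 genes that passed the filter on low counts. The study, on changes of the hippocampal transcriptome during development, is represented here by 32 RNA-seq libraries of total RNA depleted of ribosomal RNA. Every library carries the same age class, under 1 year, and the labels used here name no treatment, genotype or sex. The 16 libraries called P2010 here, the 14 called P2009 and the 2 called P2011 are named after the 4 digits with which their titles begin, and the labels do not say what these digits stand for. Libraries are numbered 1 to 32 in the order of the series, and nothing in the labels says that each library is a separate animal, so p-values measure the spread between these libraries.

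Oligodendrocytes arise from precursors that carry the growth factor receptor PDGFRA and the proteoglycan CSPG4. As a precursor leaves the cell cycle it passes through a short premyelinating state, best known from the mouse, in which GPR17, ENPP6 and BCAS1 are high. It then makes the proteins of compact myelin, among them MBP and MOG. In the primate hippocampus myelination continues after birth, so cells of all these stages can be present in a tissue sample together.

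The libraries held 9347635 to 19673621 counts in genes, with a median of 16201657. Reads in no gene feature made up 57.0% ± 3.61 of all reads (SD, n = 32). The markers of the stages on each side were detected: none of 9 precursor genes and none of 18 myelin genes was at 0 throughout, and their summed levels ran from 1064 to 2135 CPM and from 2482 to 10696 CPM over the 32 libraries. CPM are counts relative to the library's total in genes, scaled by the trimmed mean of M-values. In bulk tissue, more cells of a stage and more RNA per cell cannot be told apart. Libraries 1 and 12 stood apart within P2009, with 258 and 268 CPM of PDGFRA where the other 12 reached at most 180 CPM. Both also had the highest MBP of their prefix, 4051 and 3016 CPM. Library 1 had the fewest gene counts and the highest share of reads in no feature of all libraries (67.1%). Some results that rest on these libraries are given with and without them. Where no second value is given, values within P2009 include both libraries.

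Libraries of P2010 had higher levels of 5 of the 10 genes than those of P2009: the receptor GPR17, the enzyme ENPP6, the secreted ligand BMP4, the transcription factor NKX2-2 and the kinase FYN. None was lower, and of 6 of the 10 genes with an unadjusted p under 0.05 MYRF was the one that was not called. In edgeR's quasi-likelihood fit, at a Benjamini-Hochberg adjusted p under 0.05, 12.5% of 23977 genes were called, 7.11% as higher and 5.35% as lower. PDGFRA was higher as well, by 0.49 ± 0.10 on the log2 scale (SE, adjusted p = 0.0023). The other precursor marker CSPG4 differed by 0.32 ± 0.11 and was not called (adjusted p = 0.0566, edgeR). Of 9 precursor genes, PDGFRA and CSPG4 among them, 4 were called higher and 0 lower. MBP differed by -0.23 ± 0.22 and was not called (adjusted p = 0.531). In all 10 genes the ranges of the 2 prefixes overlapped.

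**Figure D1:**
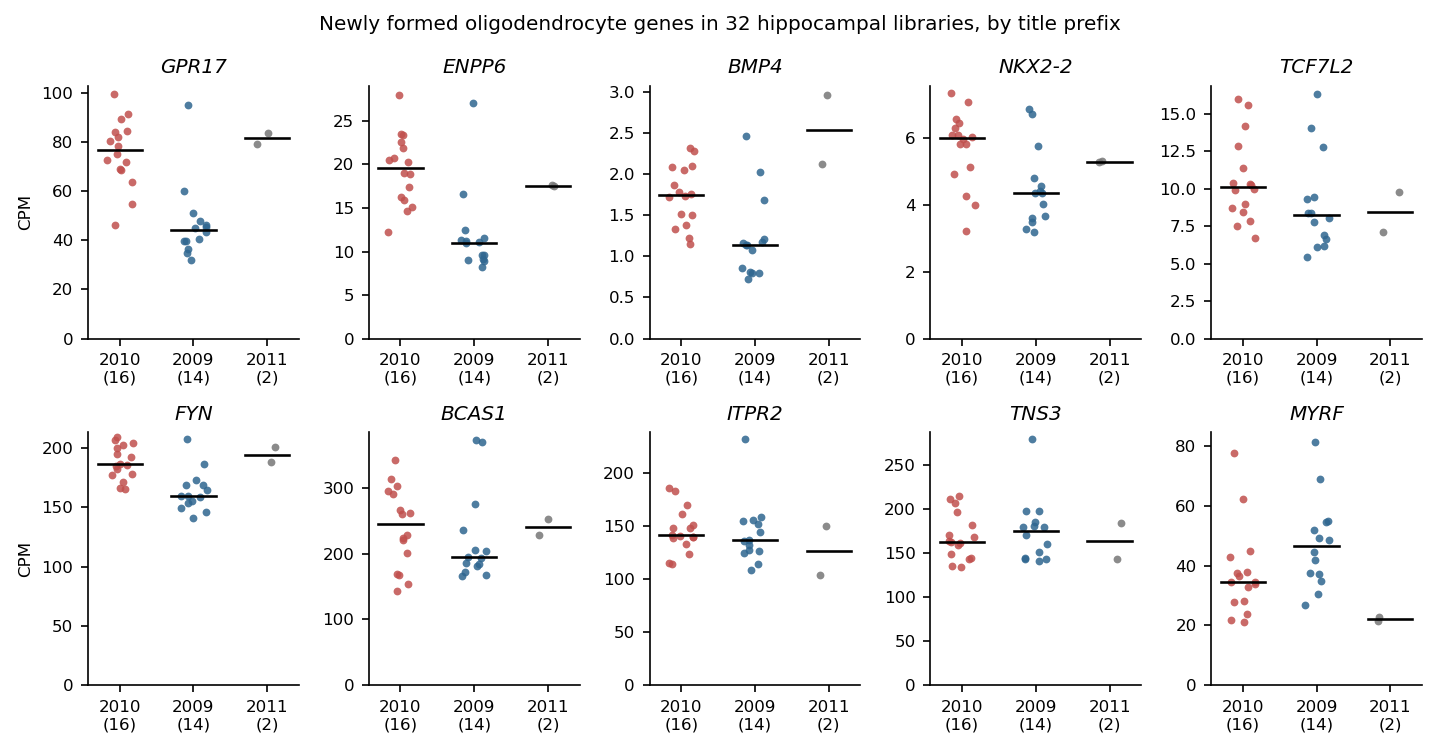
CPM of each gene (linear axis from 0) in the libraries of P2010 (16), P2009 (14) and P2011 (2), with a point per library and a bar at the median. For GPR17, ENPP6, BMP4 and FYN all 16 points of P2010 lie above the median of P2009, whose highest point is library 12 in each.

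GPR17, a G protein-coupled receptor that restrains the last steps of maturation in the mouse, had a lowest, median and highest level of 46.3, 76.7 and 99.4 CPM in P2010, against 32.1, 44.3 and 95.2 CPM in P2009. All 16 libraries of P2010 lay above the median of P2009, and 1 lay above its highest library. The difference was 0.70 ± 0.12 (log2 ± SE, adjusted p = 0.000478, edgeR), or 1.62-fold. ENPP6, a choline phosphodiesterase that marks oligodendrocytes while they form in the mouse, had 12.3, 19.6 and 28 CPM in P2010, against 8.22, 11 and 27.1 CPM in P2009. Again all 16 libraries of P2010 exceeded the median of P2009. The difference was 0.71 ± 0.14 (adjusted p = 0.00124), 1.64-fold. In both genes library 12 alone set the upper end of P2009: without it the P2009 mean of GPR17 was 43.3 CPM and that of ENPP6 was 10.7 CPM.

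BMP4, a ligand that holds back oligodendrocyte differentiation in rodents, was scarce, with 8 to 39 reads per library. Its lowest, median and highest levels were 1.15, 1.75 and 2.33 CPM in P2010, against 0.730, 1.14 and 2.47 CPM in P2009. All 16 libraries of P2010 lay above the median of P2009, and the difference was 0.51 ± 0.16 (adjusted p = 0.0275, edgeR). It missed the threshold without library 2 (adjusted p = 0.0504) or without library 29 (adjusted p = 0.0517). The highest level of BMP4 in the series, 2.96 CPM, was in library 32 of P2011.

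Of the transcription factors, NKX2-2, a homeodomain protein of the oligodendrocyte lineage, had 3.22, 6.0 and 7.36 CPM in P2010, against 3.20, 4.36 and 6.87 CPM in P2009. The lowest libraries of both prefixes were at about the same level, and 13 of 16 libraries of P2010 lay above the median of P2009. The difference of 0.35 ± 0.12 passed narrowly (adjusted p = 0.0401, edgeR) and was lost on leaving out any 1 of 20 libraries (adjusted p up to 0.0706). TCF7L2, an effector of Wnt signalling that mouse oligodendrocytes need to differentiate, had 6.69, 10.1 and 16 CPM in P2010, against 5.46, 8.22 and 16.3 CPM in P2009, a difference of 0.25 ± 0.15 that was not called (adjusted p = 0.280). It passed without libraries 1 and 12 (0.39 ± 0.13, adjusted p = 0.0410) and with the share of reads in no feature as a covariate (0.32 ± 0.09, adjusted p = 0.00999).

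MYRF, the membrane-bound factor that switches on myelin genes, had 21.1, 34.5 and 77.7 CPM in P2010, against 26.7, 46.7 and 81.6 CPM in P2009. It ran the other way from the genes above: 2 of 16 libraries of P2010 lay over the median of P2009, and both libraries of P2011, at 21.6 and 22.7 CPM, lay under every library of P2009. The difference of -0.33 ± 0.16 was not called (adjusted p = 0.180, edgeR). It passed in the fit without library 17 (-0.44, adjusted p = 0.0411), the highest of P2010.

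FYN, a Src-family kinase that relays adhesion signals in oligodendrocytes and is also expressed in neurons, varied least. Its levels were 165, 186 and 210 CPM in P2010, against 141, 160 and 208 CPM in P2009, with all 16 libraries of P2010 above the median of P2009. The difference was 0.21 ± 0.05 (adjusted p = 0.00597, edgeR), 1.15-fold. The remaining 3 genes were not called. BCAS1, a protein of early myelinating cells, had a median of 245 CPM in P2010, against 195 CPM in P2009 (difference 0.12 ± 0.13, adjusted p = 0.606). ITPR2, an inositol trisphosphate receptor that releases calcium from the endoplasmic reticulum, had a median of 142 CPM in P2010, against 137 CPM in P2009 (0.04 ± 0.08, adjusted p = 0.838). TNS3, a tensin that links integrins to the cytoskeleton, had a median of 163 CPM in P2010, against 175 CPM in P2009 (-0.05 ± 0.09, adjusted p = 0.781).

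Fewer of the 10 genes were called between the prefixes when only part of P2010 was used. The titles go on with a second number, whose meaning the labels do not give, and it is 20000 or more in 9 libraries of P2010 and lower in the other 7 and in all 14 of P2009. With the 7 libraries of low number alone, where 3.09% of 22203 genes were higher in P2010, GPR17 (0.66 ± 0.16, adjusted p = 0.0170, edgeR) and ENPP6 (0.80 ± 0.18, adjusted p = 0.0143) were called and BMP4 (0.48 ± 0.21, adjusted p = 0.187), NKX2-2 (0.38 ± 0.14, adjusted p = 0.123) and FYN (0.16 ± 0.07, adjusted p = 0.154) were not. With all libraries of P2010 these last differences were 0.51 ± 0.16, 0.35 ± 0.12 and 0.21 ± 0.05, so their SE were larger in the smaller set. Within P2010, high against low numbers, edgeR called 0% of 21488 genes, with 3023 at an unadjusted p under 0.05, and DESeq2 called 39 as higher and 155 as lower. None of the 10 genes was among the calls of either tool. TCF7L2 had the lowest unadjusted p, 0.0294, with medians of 9.95 CPM at high numbers and 12.9 CPM at low numbers (-0.36 ± 0.15, adjusted p = 0.297).

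The 10 genes differed in how much they varied between libraries. The biological coefficient of variation estimated by edgeR with no covariate was 0.35 for MYRF, 0.33 for ENPP6, 0.31 for GPR17 and 0.29 for BMP4, against a median of 0.16 over all 19959 genes. MYRF, ENPP6 and GPR17 stood above 93.4%, 92.3% and 90.5% of genes in this measure. TNS3 and ITPR2 (0.17 each) lay near the median, and FYN (0.12) below it. Both stage markers varied too, with 0.25 for PDGFRA and 0.43 for MBP.

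Across the 32 libraries, 8 of the 10 genes were positively correlated with PDGFRA and 4 with MBP, and BCAS1 and ITPR2 were in both sets. Of all 19958 genes tested, 14.1% were positively correlated with PDGFRA and 5.85% with MBP at an adjusted permutation p under 0.05. By Spearman's rho the same 8 genes passed for PDGFRA (13.7% of all genes) and 2 passed for MBP (3.44%), BCAS1 and MYRF. PDGFRA and MBP themselves were hardly related (r = -0.15, rho = -0.06, permutation p = 0.412 and 0.751). Within P2010 their r was -0.20 (p = 0.474), and within P2009 it was 0.68 (p = 0.0112, rho = 0.30), or -0.03 without libraries 1 and 12. P-values for correlations are two-sided, from 100000 permutations of the libraries, of which 1e-05 is the smallest value they can give, and are adjusted over all genes for each marker.

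**Figure D2:**
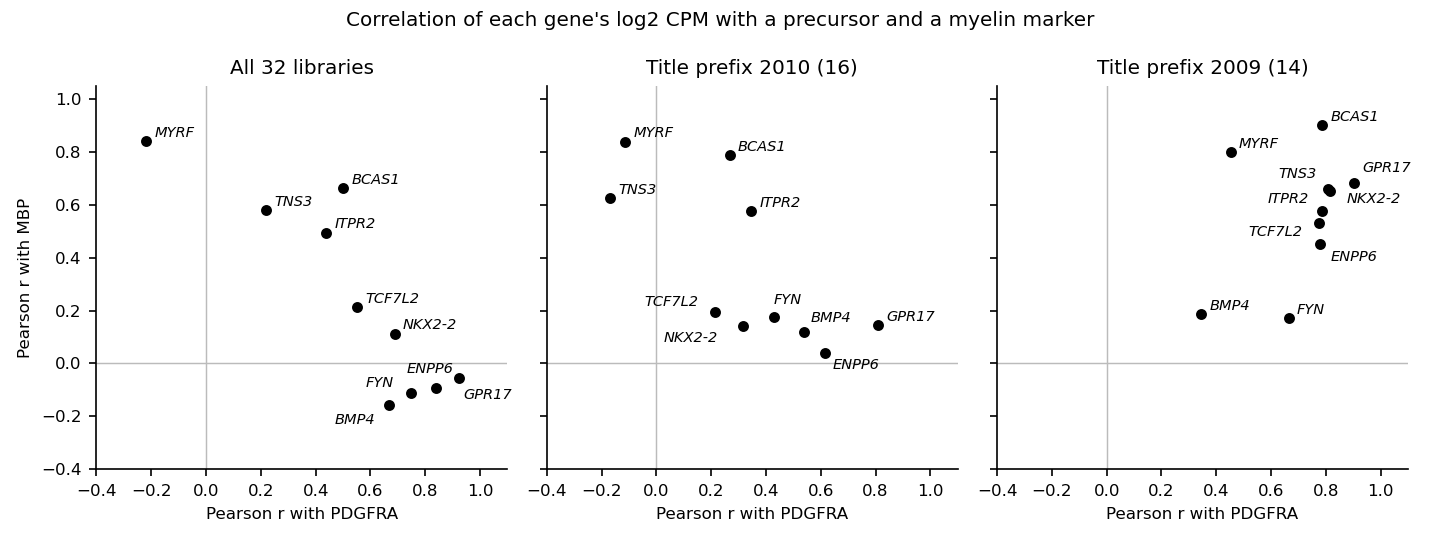
Pearson r of each gene's log2 CPM with PDGFRA (x axis) and with MBP (y axis), in all 32 libraries and in P2010 and P2009 alone, with a point per gene. In all libraries GPR17 (0.92) and ENPP6 (0.84) lie at the right near an MBP correlation of 0, and MYRF at the top left (0.84 with MBP). In P2009 alone the genes crowd at the upper right.

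GPR17 followed PDGFRA most closely, with r = 0.92 and rho = 0.90 (permutation p = 1e-05, adjusted p = 0.000225 and 0.000277). Its r was above that of 99.97% of genes, stayed between 0.91 and 0.94 when each library was left out in turn, and was 0.92 without libraries 4 and 29, the farthest in PDGFRA. Within P2010 r was 0.81 (p = 0.00019, adjusted p = 0.104) and within P2009 it was 0.90 (p = 2e-05, adjusted p = 0.0121). Its correlation with MBP was -0.05 (rho = 0.0033, p = 0.768).

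ENPP6 had r = 0.84 and rho = 0.84 with PDGFRA (p = 1e-05 for both, adjusted p = 0.000225 and 0.000277), and r = -0.09 with MBP (p = 0.616). FYN had r = 0.75 (rho = 0.72, p = 2e-05 and 3e-05), NKX2-2 0.69 (rho = 0.67, p = 3e-05 for both), BMP4 0.67 (rho = 0.67, p = 5e-05 and 0.0001) and TCF7L2 0.55 (rho = 0.64, p = 0.00114 and 0.00015) with PDGFRA. All 4 passed after adjustment over all genes, with adjusted p of at most 0.00743. Without libraries 4 and 29 their r was 0.73 for FYN, 0.64 for NKX2-2, 0.65 for BMP4 and 0.57 for TCF7L2, and that of ENPP6 was 0.83. None of these 6 genes passed with MBP, where r lay between -0.16 and 0.21.

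MYRF was correlated with the other marker. Its r with MBP was 0.84 and its rho 0.87 (p = 1e-05 for both, adjusted p = 0.000753 and 0.00117), and its r with PDGFRA was -0.22 (rho = -0.19, p = 0.230), with -0.12 within P2010 and 0.45 within P2009, which was -0.02 without libraries 1 and 12. Without libraries 15 and 29, the farthest in MBP, r with MBP was 0.82 for MYRF, 0.61 for TNS3, 0.72 for BCAS1 and 0.53 for ITPR2. The correlation of MYRF with MBP held within P2010 (r = 0.84, adjusted p = 0.00703, n = 16, permutation), where 1.9% of genes passed as positive. Within P2009 r was 0.80 (adjusted p = 0.0502) and rho 0.91 (adjusted p = 0.0333, n = 14, permutation), with 0.416% and 0.105% of genes past the threshold. TNS3 had r = 0.58 with MBP (p = 0.0004, adjusted p = 0.00903) and r = 0.22 with PDGFRA (p = 0.228). Its rank correlation with MBP, 0.50, missed the threshold (adjusted p = 0.0592). Within prefixes the r of TNS3 with MBP did not pass by permutation. It was 0.63 within P2010 (adjusted p = 0.140) and 0.66 within P2009 (adjusted p = 0.0903), or 0.08 without libraries 1 and 12.

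BCAS1 was correlated with both markers, with r = 0.50 (rho = 0.52, adjusted p = 0.0187 and 0.0152) for PDGFRA and r = 0.66 (rho = 0.67, adjusted p = 0.00229 and 0.00425) for MBP. With MBP its r was 0.79 within P2010 (adjusted p = 0.025, permutation), where 1.9% of genes passed as positive. Within P2009 it was 0.90 (adjusted p = 0.0324, 0.416% of genes), or 0.74 without libraries 1 and 12, and its rho of 0.71 did not pass (adjusted p = 0.2285). ITPR2 passed with both by Pearson's r only narrowly, with 0.44 for PDGFRA (adjusted p = 0.0447) and 0.50 for MBP (adjusted p = 0.0394). By rank it passed with PDGFRA (rho = 0.45, adjusted p = 0.0401) and not with MBP (rho = 0.35, adjusted p = 0.238). Within each prefix the r of ITPR2 with MBP was 0.58 and did not pass (adjusted p = 0.194 in P2010 and 0.138 in P2009, permutation). Within P2009 it was -0.13 without libraries 1 and 12. Without the 2 libraries farthest in PDGFRA, r with PDGFRA was 0.53 for BCAS1 and 0.40 for ITPR2.

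PDGFRA and 5 of the genes were higher in P2010, so the correlations were also computed within each prefix. Within the 16 libraries of P2010 none of 19958 genes passed for PDGFRA by the permutation test with either coefficient, with 2209 at an unadjusted p under 0.05 by Pearson's r and 1708 by Spearman's rho. There edgeR called 0.0519% of genes and none of the 10, the nearest being GPR17 (slope 0.88 ± 0.17 log2 units per log2 unit of PDGFRA, adjusted p = 0.0572). Within P2010 r was 0.61 for ENPP6 (p = 0.0105), 0.54 for BMP4 (p = 0.0274), 0.43 for FYN (p = 0.0967), 0.32 for NKX2-2 (p = 0.224) and 0.22 for TCF7L2 (p = 0.430). It was 0.345 for ITPR2 (p = 0.192), 0.27 for BCAS1 (p = 0.321) and -0.17 for TNS3 (p = 0.545, all by permutation). Without libraries 19 and 29, the farthest in PDGFRA within P2010, r was 0.73 for GPR17, 0.54 for ENPP6, 0.23 for BMP4, 0.20 for FYN, 0.12 for TCF7L2 and -0.21 for NKX2-2, whose sign turned. Within P2009, where 2.88% of genes passed as positive, GPR17, TNS3, NKX2-2, ITPR2 and TCF7L2 passed with r between 0.78 and 0.90. By rank 0.0651% of genes passed and none of the 10, GPR17 having the lowest adjusted p (0.0704, permutation). Those values leaned on libraries 1 and 12. Without them r within P2009 was 0.79 for GPR17, 0.70 for ITPR2, 0.69 for TNS3, 0.53 for TCF7L2 (0.78 with them) and 0.47 for NKX2-2 (0.81 with them). Of the genes that had not passed, BCAS1 had 0.13 without them (0.79 with them) and ENPP6 0.67 (0.78 with them).

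**Figure D3:**
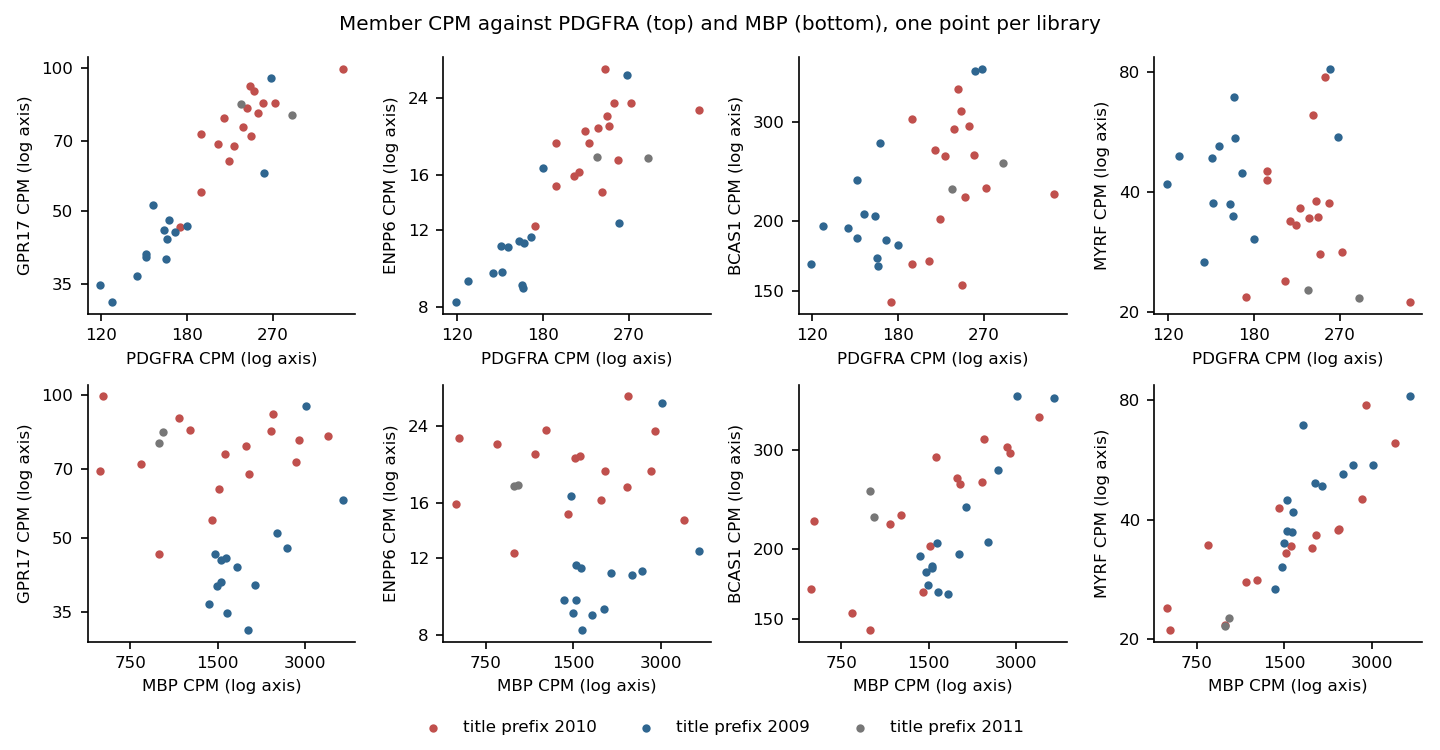
CPM of GPR17, ENPP6, BCAS1 and MYRF (y axes, log scale) against PDGFRA (top) and MBP (bottom, x axes, log scale), with a point per library coloured by title prefix. GPR17 and ENPP6 rise along PDGFRA with P2010 above most of P2009, MYRF rises along MBP in both prefixes, and BCAS1 rises along both markers.

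The same relations were fitted as slopes in edgeR, the log2 change of a gene per log2 unit of the marker. With PDGFRA and MBP in 1 fit, 8 genes had a positive PDGFRA slope, read against 14.7% of 19957 genes, and 4 had a positive MBP slope, read against 7.23%. No slope of the 10 genes was called negative, against 14.1% of genes on PDGFRA and 5.97% on MBP. The genes fell into 3 kinds: 6 with a slope on PDGFRA alone, 2 on both markers and 2 on MBP alone. The sorting of 2 genes changed with single libraries: TNS3 also passed on PDGFRA without library 15, 23, 27 or 29 (adjusted p 0.0232 to 0.0497), and TCF7L2 also passed on MBP without library 25 (adjusted p = 0.0434). In the same fit all 8 precursor genes tested were positive on PDGFRA and 2 of them on MBP. Of 17 myelin genes tested, 17 were positive on MBP, and 8 were positive and 6 negative on PDGFRA. Slopes on both markers were thus not particular to the 10 genes.

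On PDGFRA alone were GPR17 (1.20 ± 0.09, adjusted p = 1.08e-11), ENPP6 (1.17 ± 0.13), BMP4 (0.93 ± 0.19), NKX2-2 (0.67 ± 0.12), TCF7L2 (0.65 ± 0.16) and FYN (0.32 ± 0.06), each given as slope ± SE, with adjusted p of at most 0.00271. GPR17 and ENPP6 had slopes over 1, and FYN the smallest of the 6. The MBP slopes of these 6 genes lay between 0.0011 and 0.18 and were not called, the lowest adjusted p being 0.187 for TCF7L2. On both markers were BCAS1, with 0.60 ± 0.08 on PDGFRA and 0.42 ± 0.04 on MBP, and ITPR2, with 0.33 ± 0.08 and 0.21 ± 0.04. On MBP alone were MYRF (0.65 ± 0.07, adjusted p = 8.6e-08) and TNS3 (0.22 ± 0.05, adjusted p = 0.00134). The PDGFRA slope of TNS3, 0.20 ± 0.09, missed the threshold (adjusted p = 0.0766), and that of MYRF was -0.13 ± 0.13 (adjusted p = 0.491). That a gene passed on 1 marker and missed on the other does not show that its slopes differ, which was not tested.

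**Figure D4:**
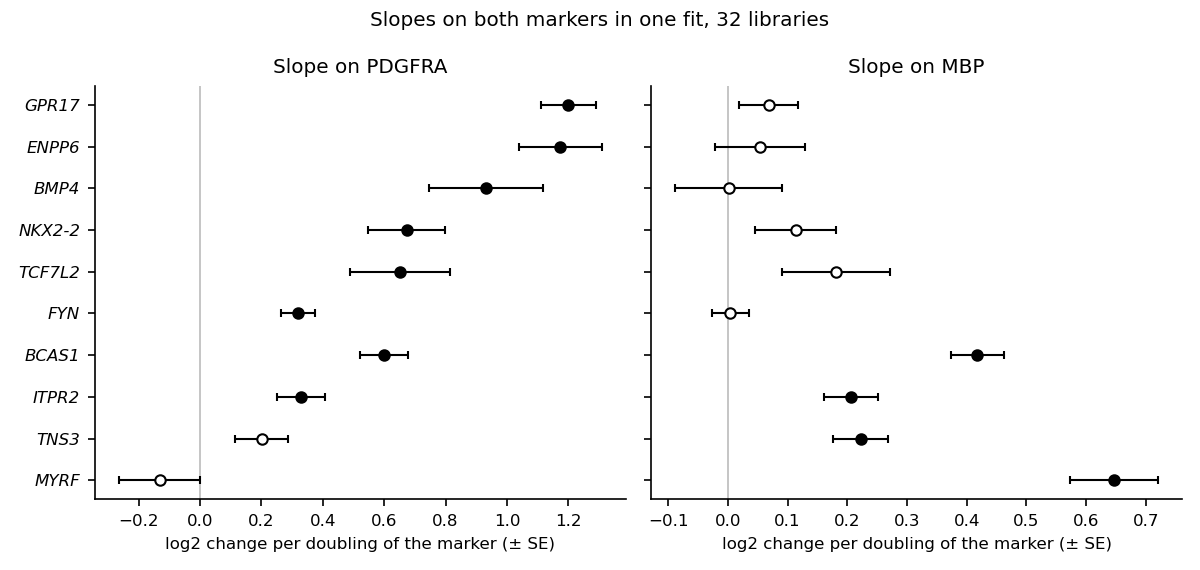
Slope of each gene on PDGFRA (left) and on MBP (right) from the edgeR fit that holds both, over 32 libraries, as log2 change per log2 unit of the marker. Bars are standard errors and filled points passed an adjusted p of 0.05: the 8 upper genes pass on the left, from 1.20 for GPR17 to 0.32 for FYN, and the 4 lower genes on the right, up to 0.65 for MYRF.

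All of these calls remained with the title prefix added to the fit. With PDGFRA slopes fitted alone the same 8 genes passed (15% of all genes), of which ITPR2 (0.29 ± 0.10, adjusted p = 0.0292) missed the threshold without library 2, without library 4, without libraries 1 and 12, without the 2 libraries farthest in PDGFRA, with no filter on low counts and with the share of reads in no feature as a covariate. Its slope in these fits was 0.20 to 0.32. With MBP slopes fitted alone the same 4 passed (6.22% of all genes), of which TNS3 and ITPR2 were lost without libraries 1 and 12 (adjusted p = 0.0550 and 0.163). ITPR2 was also lost without library 1 (adjusted p = 0.129), without library 30 (0.0526), within P2009 (0.0634) and within P2010 (0.136). TNS3 was also lost within P2010 (adjusted p = 0.0723, edgeR). With the other marker pair, CSPG4 for precursors and MOG for myelin, 5 genes passed on CSPG4 (6.56% of all genes) and 2 on MOG (1.5%) in 1 fit: TCF7L2, ITPR2 and NKX2-2 no longer passed on the precursor marker and TNS3 and ITPR2 no longer on the myelin marker.

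Ratios of levels within a library gave the spread without a fit. GPR17 counted 23.3 to 37.8 CPM per 100 CPM of PDGFRA over all 32 libraries, a 1.62-fold range, while GPR17 itself spanned 3.10-fold. The corresponding ratio of MYRF ran from 5.62 to 42.3, a 7.53-fold range. Per 100 CPM of MBP the order of these 2 genes was turned round, with a 2.61-fold range for MYRF and an 11.1-fold range for GPR17. MBP itself spanned 6.86-fold and PDGFRA 3.15-fold. TNS3, which had passed on MBP alone, ranged wider per MBP (4.82-fold) than per PDGFRA (3.39-fold). The same held for ITPR2 (4.96-fold and 2.42-fold).

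Whether a slope differs between prefixes was tested as an interaction in the 30 libraries of P2010 and P2009. For PDGFRA edgeR called 0% of 20036 genes, with 1495 at an unadjusted p under 0.05, and 1 of the 10 genes was among these, TNS3 (-0.82 ± 0.26, p = 0.00388, adjusted p = 0.668). For MBP it called 8.33% of genes, and those with the lower slope in P2010 made up 4.24% of all genes tested, and GPR17 was the only one of the 10 genes called. Its slope on MBP was 0.03 ± 0.08 within P2010 and 0.63 ± 0.16 within P2009 (adjusted p = 0.880 and 0.0247, each prefix fitted alone, where 2.55% and 5.9% of genes had a positive MBP slope), a difference of -0.59 ± 0.18 (adjusted p = 0.0430). PDGFRA differed alike, by -0.58 ± 0.16 (adjusted p = 0.0274). Without libraries 1 and 12 the difference for GPR17 was -0.22 ± 0.25 (adjusted p = 0.99975) and no gene was called for MBP. Its call was also lost on leaving out any 1 of libraries 1, 4, 6, 10, 12, 24, 25 and 29 (edgeR). The difference was then -0.77 without library 1, -0.57 to -0.60 without 4, 6, 10, 24 or 25, -0.49 without 29 and -0.32 without 12.

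**Figure D5:**
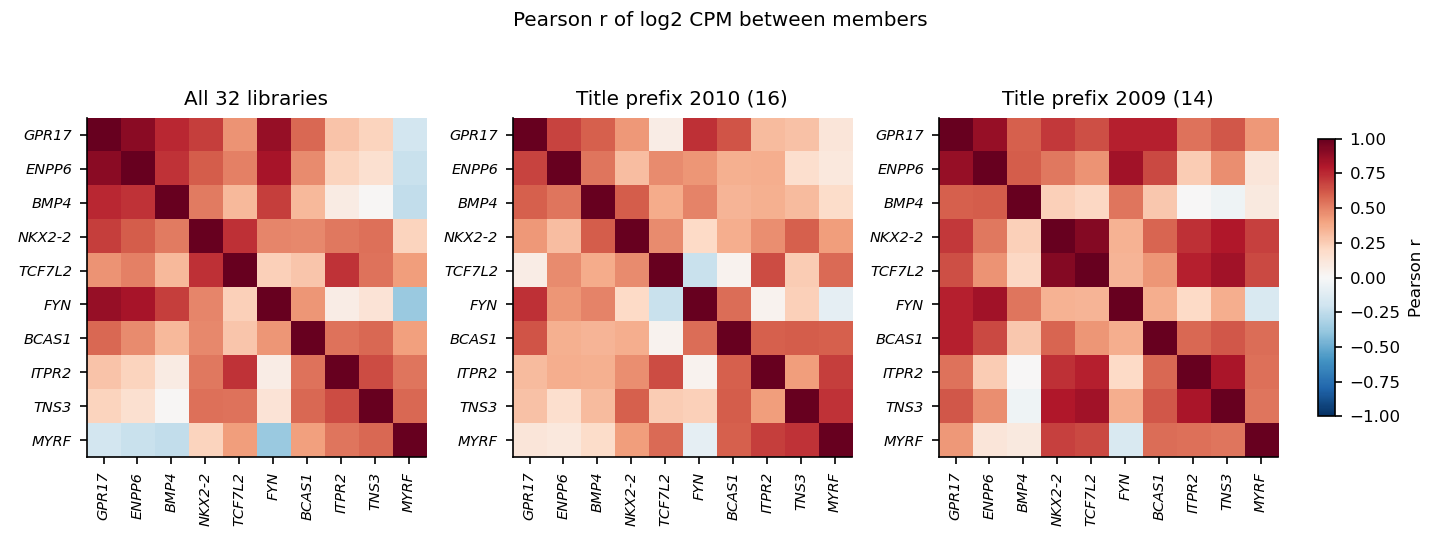
Pearson r of log2 CPM between the 10 genes in all 32 libraries, in P2010 and in P2009, on a colour scale from -1 to 1. In all libraries GPR17, ENPP6, BMP4 and FYN have r of 0.69 to 0.90 with each other, and MYRF has negative r with the same 4 genes, down to -0.37 with FYN, while within each prefix its r with GPR17, ENPP6 and BMP4 is positive, between 0.10 and 0.43.

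Among themselves the 45 pairs of the 10 genes had a median r of 0.48 over all libraries, as a description, since the genes share the same libraries and depths. GPR17 and ENPP6 were the closest pair (r = 0.90, rho = 0.88), followed by GPR17 and FYN (0.87). TCF7L2 had r = 0.73 with NKX2-2 and 0.72 with ITPR2, and TNS3 had 0.65 with ITPR2. NKX2-2 was also correlated with GPR17 (0.69) and ENPP6 (0.61). Within P2010 the pair of GPR17 and ENPP6 had r = 0.67, and within P2009 0.87. TCF7L2 and NKX2-2 had 0.48 within P2010 and 0.92 within P2009. Negative values were few: 4 of 45 pairs over all libraries, each with MYRF. Of these, the pairs with GPR17 (0.12 within P2010, 0.43 within P2009), ENPP6 (0.10 within P2010, 0.12 within P2009) and BMP4 (0.18 within P2010, 0.10 within P2009) were positive within both prefixes. Values within P2009 include libraries 1 and 12, the 2 highest of that prefix in GPR17 and among its 3 highest in MYRF. No pair was computed without them. The pair with FYN was negative in both, with -0.09 within P2010 and -0.15 within P2009.

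The genes whose levels were most like each member were found among 12917 genes with a symbol and a mean of at least 1 CPM, by Pearson r over 32 libraries. Nearest to GPR17 were OLIG2 (0.94), a master transcription factor of the lineage, LHFPL3 (0.94), PDGFRA (0.92), LIMS2 (0.92) and B3GNT7 (0.91). Nearest to ENPP6 were BAMBI (0.91), a decoy receptor of the BMP and TGF-beta pathway, RASSF10 (0.91), LHFPL3 (0.91), GPR17 (0.90) and SPTBN5 (0.89). BAMBI was also the first neighbour of FYN (0.87), ahead of GPR17 (0.87). GPR17 was the first neighbour of BMP4 (0.76), whose next were BAZ1A, WEE1, ASPM and STK32A (0.74 to 0.75). WEE1 and ASPM act in cell division. Within P2010 the r with the 5 nearest genes was 0.66 to 0.88 for GPR17, 0.63 to 0.84 for ENPP6, 0.61 to 0.74 for FYN and 0.52 to 0.76 for BMP4. Within P2009 it was 0.90 to 0.95, 0.85 to 0.91, 0.73 to 0.86 and 0.52 to 0.60 in the same order.

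The neighbours of MYRF were of another kind: PLEKHH1 (0.94), KIF13B (0.93), CNTN2 (0.91), TTYH2 (0.91) and FA2H (0.90), of which FA2H makes hydroxylated myelin lipids and CNTN2 is an adhesion molecule of myelinated axons. They kept r of 0.82 or more within each prefix. BCAS1 was nearest to CD9 (0.86), GOLIM4 (0.86), DENND5A (0.86), KANK1 (0.83) and ELOVL1 (0.83), and MBP ranked 80 in its order. TNS3 was nearest to VAMP3, PREX1, RAP1A, MERTK and FGFR2 (0.77 to 0.81), and NKX2-2 to MYO10, TMEM108, PLEKHG1, SEMA6A and NCAPD2 (0.79 to 0.83). For TCF7L2 the order was GLI3 (0.90), C15H3orf70, MIDN, SALL3 and ANTXR1 (0.87 to 0.89), with PDGFRA at rank 791. For ITPR2 it was PDLIM5 (0.88), UTRN, PARD3B, WWC2 and PIK3C2A (0.86 to 0.87).

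Other regulators of the lineage were read from a list of 15 genes. In P2010 against P2009, 7 were higher and 1 was lower, beside 7.11% and 5.35% of all genes, with a median log2 difference of 0.27 against 0.0054 over all genes tested. OLIG2 (0.50 ± 0.10), SOX6 (0.42 ± 0.09), SOX8 (0.37 ± 0.07) and TMEM98 (0.38 ± 0.08), a membrane protein that binds MYRF, were among the higher ones. HDAC11, a histone deacetylase expressed in maturing oligodendrocytes, was the lower one (-0.44 ± 0.07, adjusted p = 0.000478). In the fit with both markers 10 of the 15 were positive and 2 negative on PDGFRA, and 6 positive and 0 negative on MBP. Of all genes 14.7% and 14.1% were so on PDGFRA and 7.23% and 5.97% on MBP, so the 2 negative ones are near the background. OLIG1, SOX10 and ZNF488 were positive on both markers, as BCAS1 and ITPR2 were. NKX6-2, a homeodomain factor of maturing cells, was positive on MBP alone (0.80 ± 0.06), as MYRF was.

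Around BMP4, 19 other genes of the BMP pathway were tested, ID2 and ID4 of the regulator list among them, and 7 were higher and 1 was lower in P2010, where 7.11% and 5.35% of all genes were. Their median log2 difference was 0.10, against 0.0054 over all genes tested. The ligands BMP2 (0.36 ± 0.11) and BMP6 (0.29 ± 0.10), the receptor BMPR1A (0.18 ± 0.04), the signal transducer SMAD1 (0.36 ± 0.06) and the targets ID2 (0.31 ± 0.08), ID3 (0.28 ± 0.09) and ID4 (0.24 ± 0.07) were higher. The receptor ACVR1 was lower (-0.37 ± 0.11, adjusted p = 0.0277). The antagonists NOG (0.17 ± 0.10), CHRD (-0.21 ± 0.10) and GREM1 (-0.38 ± 0.16) and the target ID1 (0.12 ± 0.10) were not called. On PDGFRA, with MBP in the fit, 8 of 19 were positive and 1 was negative, beside 14.7% and 14.1% of all genes. The summed level of the list had r = 0.08 and rho = 0.10 with BMP4 across 32 libraries.

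Around TCF7L2, 16 of 17 listed genes of Wnt signalling to the nucleus were tested. APC (0.28 ± 0.08), AXIN2 (0.28 ± 0.06) and NKD1 (0.44 ± 0.08) were higher in P2010 and none was lower, beside 7.11% and 5.35% of all genes, and the median of the 16 was 0.13. AXIN2 and NKD1 are induced by Wnt signals and damp them. On PDGFRA, with MBP in the fit, 8 were positive, NKD1 (0.67 ± 0.09) and APC (0.55 ± 0.08) among them, and 1, TLE3, was negative (-0.31 ± 0.08), beside 14.7% and 14.1% of all genes. On MBP 2 were positive, TLE4 and LEF1, and 2 negative, AXIN2 and CTNNB1, beside 7.23% and 5.97% of all genes, so these counts are near the background.

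Markers of other cell types moved with some of these results, and their part in them was not tested. All 7 immature neuron genes with a row, of 8 listed, were higher in P2010, beside 7.11% of all genes. With MBP in the fit all 7 had positive PDGFRA slopes, beside 14.7% of all genes. Their summed level was 681 to 1864 CPM in P2010, against 606 to 1132 CPM in P2009. That sum had r = 0.72 with GPR17, 0.73 with ENPP6, 0.70 with FYN and -0.72 with MYRF over 32 libraries. Of 18 myelin genes 3 were lower in P2010 (edgeR), beside 5.35% of all genes: HAPLN2 (-1.17 ± 0.21), KLK6 (-0.83 ± 0.25) and GJB1 (-0.76 ± 0.26). Of the 18, 8 had positive differences that were not called, MAG (0.32 ± 0.18) and CLDN11 (0.33 ± 0.18) among them. The lowest, median and highest summed myelin levels were 2482, 5868 and 9974 CPM in P2010, against 4576, 5264 and 10696 CPM in P2009, so the median was higher in P2010 although the lowest library was lower. Of the 5 microglia genes with a row, C1QA (0.49 ± 0.15) and C1QB (0.43 ± 0.14) were higher in P2010, beside 7.11% of all genes. CX3CR1 (-0.28 ± 0.17), CSF1R (-0.25 ± 0.09) and P2RY12 (-0.08 ± 0.09) were not called. The sum of the astrocyte genes had r = 0.80 with ITPR2 and 0.65 with MYRF, and that of the microglia genes had r = 0.74 with TNS3, 0.68 with MYRF and 0.66 with ITPR2. With MBP in the fit, 5 of 6 endothelial genes and 4 of 8 mural and fibroblast genes had positive PDGFRA slopes, PDGFRB (0.59 ± 0.07), COL1A2 (1.32 ± 0.45) and COL3A1 (1.59 ± 0.43) among them, and none was negative. Of all genes 14.7% were positive and 14.1% negative. Of these 14 endothelial, mural and fibroblast genes PDGFRB alone was higher in P2010 (0.37 ± 0.08), near the 7.11% of all genes called higher. The endothelial sum had r = 0.55 with GPR17 and 0.40 with ENPP6, and the mural and fibroblast sum had r = 0.56 with GPR17, 0.58 with ENPP6 and 0.59 with FYN. Of 6 excitatory neuron genes SLC17A7 (-1.01 ± 0.15) and CAMK2A (-0.64 ± 0.11) had negative PDGFRA slopes and 1 gene had a positive one, beside 14.1% and 14.7% of all genes. SLC17A7 (-0.55 ± 0.14) and CAMK2A (-0.37 ± 0.11) were also lower in P2010, beside 5.35% of all genes. The sum of the excitatory genes had r = -0.63 with GPR17, -0.61 with ENPP6 and 0.41 with MYRF. Astrocyte and microglia sums were highest in library 1 (9652 and 313 CPM).

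The share of reads in no gene feature also moved with single genes. Over 32 libraries its r was 0.75 with TCF7L2, 0.62 with ITPR2, 0.44 with NKX2-2, 0.44 with MYRF and 0.42 with TNS3. It was 0.03 with GPR17 and 0.11 with ENPP6. For the markers it was 0.23 with PDGFRA and 0.10 with MBP, whose r with the gene counts were -0.50 and -0.12. For TCF7L2 the r was high within each prefix as well, 0.73 within P2010 and 0.88 within P2009. For GPR17, ENPP6 and the 2 markers the pooled values did not hold within each prefix. Within P2009 the r of the share was 0.52 with GPR17, 0.30 with ENPP6, 0.67 with PDGFRA and 0.68 with MBP. Within P2010 it was -0.18, 0.27, 0.16 and -0.34 with the same genes. With that share as a covariate the PDGFRA slope of TCF7L2 was 0.44 ± 0.11, against 0.62 ± 0.17 without it, and that of GPR17 1.24 ± 0.08, against 1.18 ± 0.09.

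GPR17 overlaps LIMS2, a focal adhesion adapter, in the reference gene table (RefSeq, assembly mChlSab1.0.hap1). The library kit keeps the strand, but whether the counting used it is not stated, so reads of the 2 genes may be mixed and both levels are uncertain. LIMS2 had a PDGFRA slope of 1.13 ± 0.09 (MBP not in the fit) and was higher in P2010 (0.62 ± 0.12, adjusted p = 0.00155, edgeR). Its r with GPR17 was 0.92, 0.66 within P2010 and 0.95 within P2009. GPR17 held 2.86 to 4.80 times the CPM of LIMS2. No other gene of the count table overlaps any of the 10 genes in that reference.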

How the data were processed

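The deposited table holds read counts per gene for 32 libraries of vervet hippocampus. Per the labels' protocols, total RNA was extracted with PerfectPure, depleted with Ribo-Zero Gold and made into stranded Illumina TruSeq libraries. Reads were processed with STAR and HTSeq, per the submitters' processing notes. Tool versions, genome build, annotation and strand setting were not given in any source used here. The 5 summary rows of the authors' count table (65.9% of reads, mostly reads in no gene feature) were left out of library sizes. Counts were tested as deposited with edgeR 4.0.16 in R 4.3.3 (quasi-likelihood, TMM scaling), keeping genes by filterByExpr (minimum count 10, minimum total 15, minimum proportion 0.7), with Benjamini-Hochberg adjustment over all genes tested at 0.05. The fits compared P2010 with P2009 in all 32 libraries, and fitted slopes on log2 CPM (prior count 2) of PDGFRA and MBP alone, together and by prefix. Correlations used 100000 permutations in numpy 2.4.6. A count of 0 allows up to 3 counts, or 0.152 to 0.321 CPM, for counting error only. None of the 496 pairs of libraries agreed within sampling noise (lowest chi-square per degree of freedom 4.34). The scripts were tested on simulated data. DESeq2 1.42.0, limma 3.58.1, RLE scaling, no filter, covariates, other markers and left-out libraries were alternatives.

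The members, lists and tests were chosen with earlier results of these data known. The genes named are the 10 members in every comparison, the 4 stage markers, the 5 genes with the highest r with each member, genes overlapping a member and listed genes given as examples. CPM are not per length, so levels are not compared between genes.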

Additional observations from a re-analysis of the deposited data

Results flagged for a closer look

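MYRF in library 17 (low title numbers, P2010) had 77.7 CPM, far from the other 6 of those libraries, whose mean was 33.4 CPM and whose nearest was at 42.9 CPM. It was the only such value in 20 combinations of gene and group examined, and chance gives about 1 in 20. The cause was not tested.

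The slope of GPR17 on MBP differed between P2010 and P2009 by -0.59 ± 0.18 (SE, edgeR adjusted p = 0.0430), by a test of the difference itself. GPR17 was 1 of the 10 genes called, near the 8.33% of all genes called for this difference. Without libraries 1 and 12 of P2009 the difference was -0.22 ± 0.25 (adjusted p = 0.99975). The call was also lost on leaving out any 1 of libraries 1, 4, 6, 10, 12, 24, 25 and 29, and with no filter on low counts (adjusted p = 0.0715).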

How the results depend on the processing

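All calls of the 10 genes held with DESeq2 (20 of 20), limma-trend (20 of 20), RLE size factors (80 of 80) and the title prefix as a factor (40 of 40). Counts are of members, or of genes higher and lower. For P2010 over P2009 (5 members, 1705 and 1282 genes), low title numbers alone gave 2 members and 687 and 475 genes, and the no-feature covariate 2015 lower genes. PDGFRA slopes (8 members, 2987 and 2696 genes) gave 1202 and 1114 genes in P2009, 0 members and 8 and 2 genes in P2010, 1622 higher genes with the prefix as a factor, and 4 members and 1431 and 1372 genes on CSPG4. MBP slopes (4 members, 1242 and 1180 genes) gave 2 members and 492 and 217 genes in P2010, 650 and 293 genes with the prefix as a factor, 807 and 488 without the 2 farthest libraries, 2 members and 272 and 92 genes on MOG, and 2 members without libraries 1 and 12. The GPR17 slope on MBP (-0.04) turned to 0.63 in P2009 alone. With both markers, PDGFRA slopes (2941 and 2823 genes) gave 1712 higher genes with the prefix as a factor and 5 members and 1310 and 1340 genes on CSPG4. MBP slopes (1443 and 1191 genes) gave 802 and 460 with the prefix, 2 members and 299 and 91 genes on MOG, and 830 and 484 genes without libraries 1 and 12. The MBP slope difference (1 member, 820 and 850 genes) gave 0 members and 429 and 456 genes with no filter, and 0 members and 0 genes without libraries 1 and 12. For high over low title numbers DESeq2 called 39 and 155 genes. The causes were not tested.

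Leaving out each library gave 3 to 5 members higher and 0 to 1 lower for the prefixes, 953 to 1778 higher and 579 to 1450 lower genes for MBP slopes with PDGFRA in the fit, 0 to 2 members, 0 to 1646 higher and 0 to 1545 lower genes for the MBP slope difference, and 0 to 13 higher and 0 to 8 lower genes for title numbers. The lowest MBP counts came without library 1. The settings without libraries 1 and 12 and the left-out libraries for the slope difference were chosen after seeing the data. No paired analysis was possible because the replicate numbers only follow the order of the series. BMP4, at 8 to 39 reads per library, is the member limited most by depth.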
